A study of Oryza sativa with 9 samples.

Results

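The genes described here are 8 MADS-box genes of rice, chosen by their identifiers out of 56143 annotated genes. They are the B-class genes OsMADS2 (LOC_Os01g66030), OsMADS4 (LOC_Os05g34940) and OsMADS16 (LOC_Os06g49840), the AP1/FUL-class genes OsMADS14 (LOC_Os03g54160), OsMADS15 (LOC_Os07g01820), OsMADS18 (LOC_Os07g41370) and OsMADS20 (LOC_Os12g31748), and the separately standing gene OsMADS32 (LOC_Os01g52680). MADS-box genes encode transcription factors that bind DNA as dimers and join into larger complexes, and the combination of classes present in a whorl sets which floral organ forms there. In rice, B-class proteins pair with each other, an AP3-type with a PI-type partner, and with C- and E-class proteins specify stamens, while B function without C function belongs to the lodicules. AP1/FUL-class genes, the counterparts of the A class of *Arabidopsis*, act earlier, in the change of the shoot tip to an inflorescence and then to flowers.

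RNA was sequenced from rice panicles 1 cm long, taken from wild-type *Oryza sativa* (cv. Nipponbare) and from 2 kinds of *osmads58* mutant, with no treatment. The wild type had 3 samples (1, 2 and 3). *osmads58* dSpm, 4 samples (1, 2, 4b and 5b), carries a dSpm transposon in an intron of the C-class gene OsMADS58 and stays fertile. *osmads58* CRISPR, 2 samples (1 and 2), carries a frameshift made by Cas9 in an early exon of OsMADS58. By the study's methods only a part of the CRISPR homozygotes were fully sterile, and the plants used were chosen from that part. The labels give both mutants as *osmads58*-/-, the same genotype for an insertion and for a frameshift. The samples are separate lines according to the study's methods, and panicles of several plants were pooled for each CRISPR sample. Plants were raised in fields and in a growth chamber, and which sample came from where was not given in the sources used here.

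Values are in CPM, the authors' estimated counts scaled to each sample's library size with TMM factors. Samples held between 65192657 and 83042245 counts in all. The targeted gene OsMADS58 averaged 5.23 ± 2.75 CPM (SD) in 3 wild-type samples, 1.65 ± 0.635 CPM (SD) in 4 dSpm samples and 0.370 ± 0.143 CPM (SD) in 2 CRISPR samples, where 20 and 42 counts remained. Over all tested genes, wild type 1 and dSpm 1 stood apart from the other samples of their groups, at -114 and -126 on the first principal component, where the other wild-type and dSpm samples lay between -21.3 and 18.7. dSpm 4b and 5b, at -108 and -109, lay apart from dSpm 1 and 2, at -51.3 and -16.8, on the second component. The members' differences are given below with and without these samples. A whole panicle holds many organs, so fewer cells of a type cannot be told apart from less RNA per cell.

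B-class transcripts had their lowest group means in CRISPR. The mean of each of the 3 genes was lower in CRISPR than in the wild type and than in dSpm, and the fitted difference from the wild type was -1.53 to -1.02 on the log2 scale. None of the 3 passed the test, and wild type 1 was well above wild type 2 and 3 for each.

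OsMADS2, a PI-type gene known for its part in lodicule development, was at 120, 49.0 and 36.3 CPM in wild type 1, 2 and 3. Its levels in dSpm 1, 2, 4b and 5b were 48.8, 37.6, 50.6 and 47.3 CPM. CRISPR held 22.7 and 24.8 CPM. Both CRISPR samples lay below every other sample, the dSpm samples lay close together, and wild type 1 lay far above all others. Group means with their SD were 68.6 ± 45.4 CPM over 3 wild-type samples, 46.1 ± 5.84 CPM over 4 dSpm samples and 23.7 ± 1.51 CPM over 2 CRISPR samples. CRISPR was at -1.53 from the wild type on the log2 scale (standard error 0.44, 95% interval -2.53 to -0.54), with an adjusted p = 0.0670 in edgeR (quasi-likelihood test, p-values adjusted after Benjamini and Hochberg over all tested genes). Against dSpm the difference was -0.96 (standard error 0.42, adjusted p = 0.202 in edgeR). Between dSpm and the wild type it was -0.57 (standard error 0.35, adjusted p = 0.455 in edgeR), and it turned to 0.11 once wild type 1 was left out. Without wild type 1 and dSpm 1 the CRISPR difference from the wild type shrank to -0.85, with an adjusted p = 0.0318 in edgeR and the fold change under the 2-fold threshold. Leaving out wild type 3 instead gave -1.84 with an adjusted p = 0.0458 in edgeR, which passed both thresholds. Over the 19 alternatives the adjusted p of this difference ran from 0.00526 to 0.321.

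OsMADS4, the second PI-type gene, acts with OsMADS2 in lodicules and stamens. It was at 31.9, 22.4 and 11.4 CPM in wild type 1, 2 and 3. The dSpm samples 1, 2, 4b and 5b held 28.2, 10.5, 38.9 and 38.4 CPM, and the CRISPR samples 11.7 and 9.83 CPM. CRISPR was at the bottom of the range, but wild type 3 and dSpm 2 reached down to the same level, so the groups overlapped. The fewest counts of any sample, 684 in dSpm 2, are far above the 3 counts that a count of 0 allows. The log2 fold change was -1.02 for CRISPR against the wild type (standard error 0.56, 95% interval -2.27 to 0.22, adjusted p = 0.280 in edgeR). For dSpm against the wild type it was 0.40 (standard error 0.45, adjusted p = 0.724 in edgeR). CRISPR against dSpm gave the larger difference, -1.43 (standard error 0.55, 95% interval -2.65 to -0.20, adjusted p = 0.151 in edgeR). With dSpm 2 left out this became -1.67 with an adjusted p = 0.0406 in edgeR, in a range from 0.0299 to 0.570 over the 19 alternatives. It was -1.82 against dSpm 4b and 5b alone and -0.81 against dSpm 1 and 2 alone, the latter with an adjusted p = 0.384 in edgeR. The difference from the wild type was -0.65 for CRISPR and 0.79 for dSpm without wild type 1 and dSpm 1.

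OsMADS16, the AP3-type gene also called SUPERWOMAN1, is needed for stamens and lodicules, and its loss turns stamens into carpels. It was at 120, 40.9 and 49.1 CPM in wild type 1, 2 and 3. In dSpm 1 and 2 it was at 58.7 and 38.5 CPM, and in dSpm 4b and 5b at 125 and 140 CPM. CRISPR held 25.2 and 34.9 CPM, below all other samples. Wild type 1 thus sat with dSpm 4b and 5b, and the other wild-type samples with dSpm 1 and 2. The log2 fold change was -1.22 in CRISPR against the wild type (standard error 0.61, 95% interval -2.60 to 0.16, adjusted p = 0.245 in edgeR). It was -1.59 in CRISPR against dSpm (standard error 0.60, 95% interval -2.94 to -0.23, adjusted p = 0.148 in edgeR) and 0.37 in dSpm against the wild type (standard error 0.50, adjusted p = 0.775 in edgeR). Without wild type 1 and dSpm 1, CRISPR differed from the wild type by -0.58 and dSpm from the wild type by 1.17. CRISPR differed from dSpm 4b and 5b alone by -2.12 (adjusted p = 0.0323 in edgeR) and from dSpm 1 and 2 alone by -0.66 (adjusted p = 0.430 in edgeR), in a range of adjusted p from 0.0323 to 0.536 over the 19 alternatives.

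**Figure D1:**
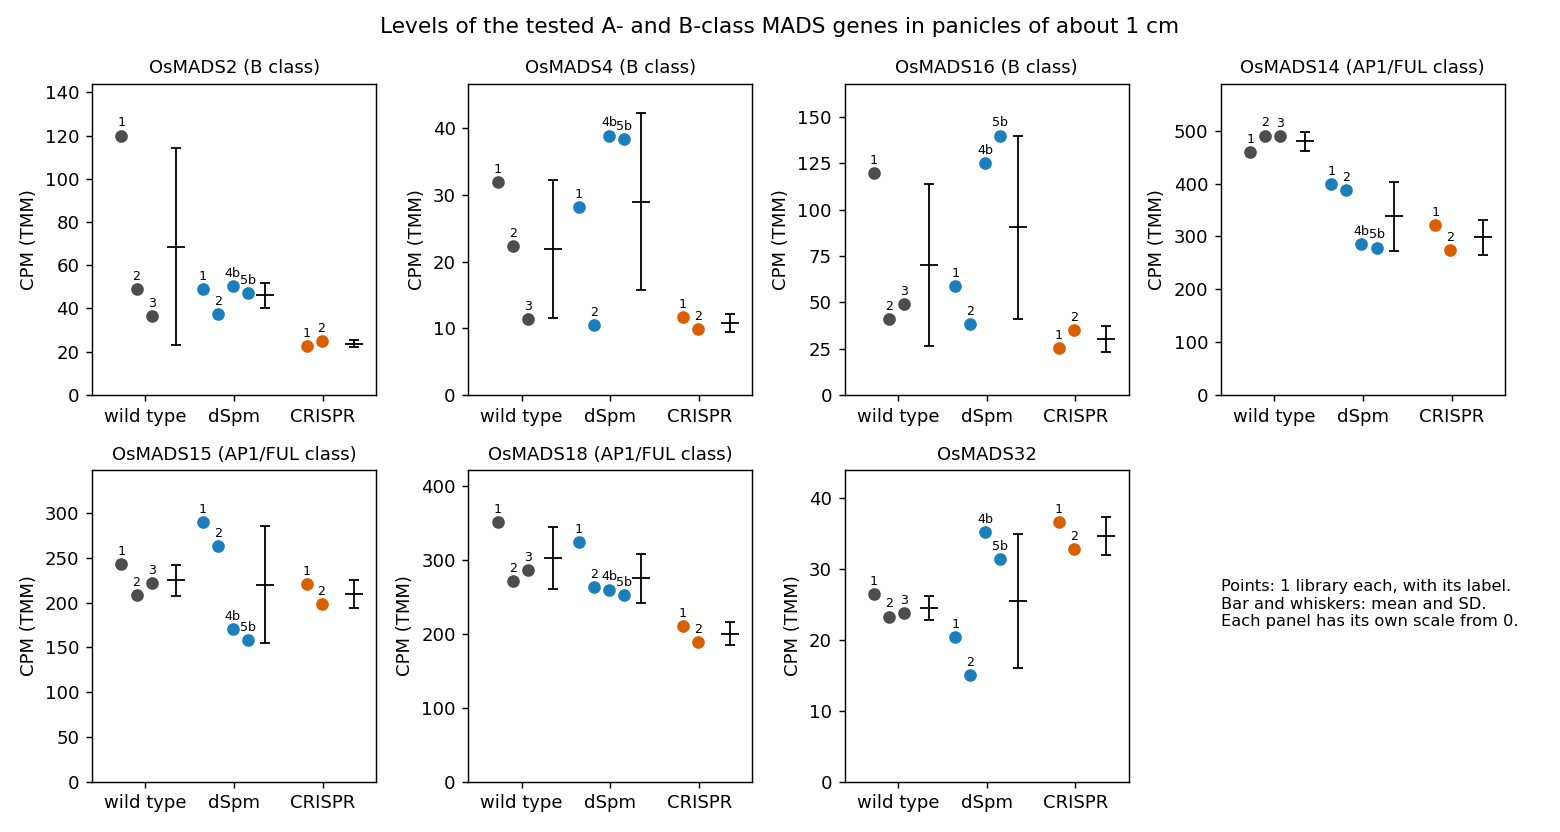
CPM (TMM-normalized) of the 7 tested genes in each library, by group, on linear axes from 0 that differ between panels. Points are libraries with their labels, and the bar with whiskers beside them is the mean and SD. For OsMADS2 and OsMADS16 both CRISPR libraries lie below all others, and wild type 1 lies far above wild type 2 and 3.

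The B-class genes varied more within the wild type than the other tested members. Their coefficient of variation over the 3 wild-type samples was 66.1% for OsMADS2, 46.8% for OsMADS4 and 62.2% for OsMADS16, where the median was 15.9% over the 13243 genes that averaged 10 CPM or more. Among those genes, 1.18%, 5.11% and 1.59% varied as much as or more than OsMADS2, OsMADS4 and OsMADS16. The other members varied by 3.73% (OsMADS14), 7.65% (OsMADS15), 14.0% (OsMADS18) and 6.94% (OsMADS32), all below that median. Wild type 1 was 2.82 times the mean of wild type 2 and 3 for OsMADS2, 1.89 times for OsMADS4 and 2.67 times for OsMADS16. The CRISPR mean was below that of wild type 2 and 3 as well, which was 1.8, 1.57 and 1.5 times the CRISPR mean for OsMADS2, OsMADS4 and OsMADS16. Wild type 1 was the highest wild-type sample for 44.2% of all tested genes, and also for OsMADS15, OsMADS18 and OsMADS32. A wide spread was not particular to the B class. Of the 10 tested MADS-box identifiers of other classes described below, 9 had a wild-type coefficient of variation between 45% and 130%, and that of LOC_Os03g54170 was 18.6%.

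Both PI-type genes were lowest in dSpm 2 and highest in dSpm 4b, but OsMADS4 ranged from 10.5 to 38.9 CPM over the dSpm samples and OsMADS2 only from 37.6 to 50.6 CPM. In dSpm 4b and 5b, OsMADS4 averaged 38.6 CPM against 19.3 CPM in dSpm 1 and 2, a ratio of 2.0, and OsMADS16 averaged 132 against 48.6 CPM, a ratio of 2.72. OsMADS2 averaged 49.0 against 43.2 CPM, a ratio of 1.13. Set against the mean of the wild type, the log2 ratio of OsMADS2 to OsMADS4 was -1.19 in dSpm 4b and -1.27 in dSpm 5b, below the -0.44 to 0.34 of the wild-type samples. It was -0.78 in dSpm 1, 0.27 in dSpm 2, and -0.62 and -0.24 in CRISPR. OsMADS16 and OsMADS4 kept closer to each other, and their log2 ratio in the 6 mutant samples, -0.57 to 0.25, stayed within the -0.76 to 0.47 of the wild type. What the letter b in the dSpm labels stands for was not given in the sources used here, and the difference between the pairs was not tested.

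**Figure D2:**
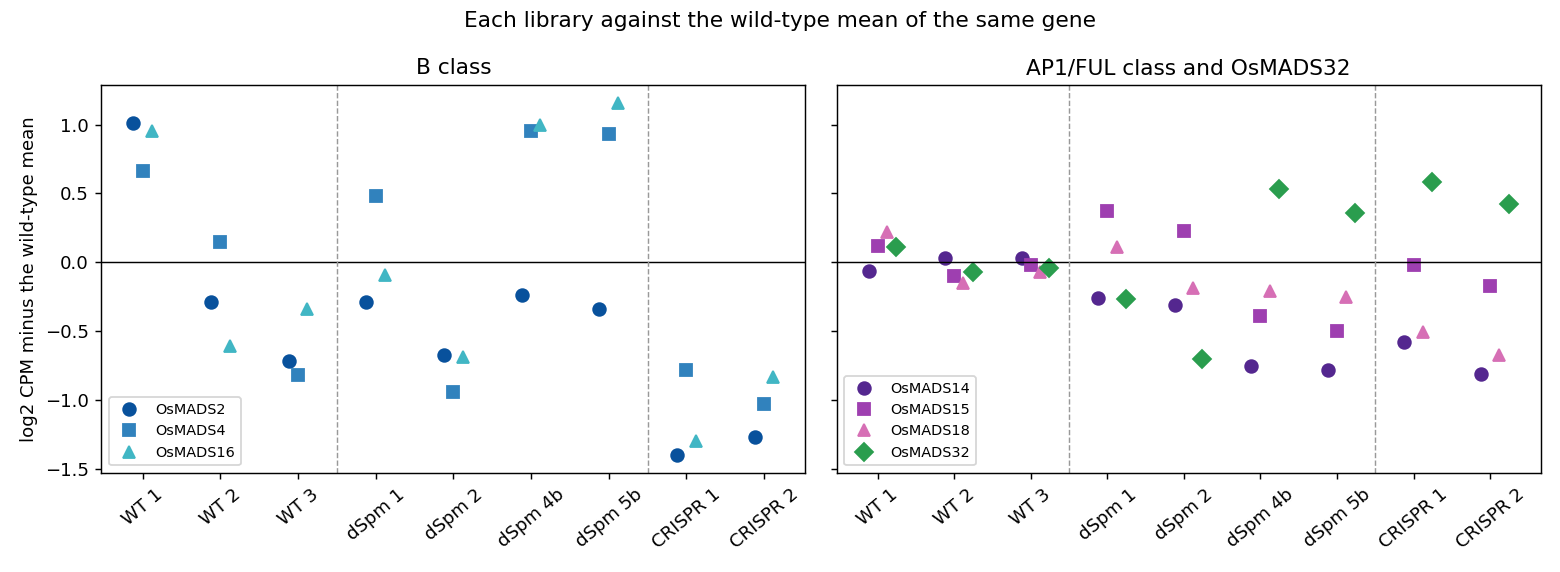
Log2 CPM of each library minus the wild-type mean of the same gene, for the B-class genes (left) and for the tested AP1/FUL-class genes with OsMADS32 (right); dashed lines part the groups. OsMADS4 and OsMADS16 lie near 1 in dSpm 4b and 5b while OsMADS2 lies below 0 there, and all 3 lie below 0 in both CRISPR libraries.

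Among the AP1/FUL-class genes, OsMADS14 and OsMADS18 were lower in CRISPR than in each wild-type sample and OsMADS15 was not. These 3 genes act together in rice in turning the shoot tip into an inflorescence, and OsMADS14 and OsMADS15 also in the outer organs of the spikelet. None passed the test, and each fitted difference was under 2-fold.

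OsMADS14 was at 459, 491 and 490 CPM in wild type 1, 2 and 3. The dSpm samples 1, 2, 4b and 5b held 400, 388, 285 and 279 CPM, and the CRISPR samples 321 and 274 CPM. Every mutant sample was thus below every wild-type sample, with dSpm 4b and 5b at the level of CRISPR. Means with their SD were 480 ± 17.9 CPM over 3 wild-type samples, 338 ± 64.9 CPM over 4 dSpm samples and 298 ± 33.1 CPM over 2 CRISPR samples. CRISPR against the wild type gave a log2 fold change of -0.69 (standard error 0.20, 95% interval -1.14 to -0.24, adjusted p = 0.0676 in edgeR). dSpm against the wild type gave -0.51 (standard error 0.16, 95% interval -0.87 to -0.14, adjusted p = 0.168 in edgeR). The mutants differed from each other by -0.18 (standard error 0.19, adjusted p = 0.606 in edgeR). Both differences from the wild type kept their sign under each of the 19 alternatives, at -0.80 to -0.57 for CRISPR, with an adjusted p from 0.00577 to 0.429, and at -0.80 to -0.27 for dSpm, with an adjusted p from 0.00501 to 0.771. Since the comparisons share the wild-type samples, they are not independent of each other.

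OsMADS18 was at 351, 271 and 286 CPM in wild type 1, 2 and 3. It was at 324, 264, 260 and 252 CPM in dSpm 1, 2, 4b and 5b, and at 211 and 189 CPM in CRISPR. Only CRISPR left the range of the other samples, on the low side. Its difference from the wild type was -0.59 on the log2 scale (standard error 0.18, adjusted p = 0.0737 in edgeR) and from dSpm -0.46 (standard error 0.17, 95% interval -0.84 to -0.08, adjusted p = 0.141 in edgeR). Without wild type 1 and dSpm 1 these were -0.48 and -0.37, with adjusted p = 0.0222 and adjusted p = 0.0341 in edgeR, still under 2-fold. Over the 19 alternatives the adjusted p ran from 0.0145 to 0.425 against the wild type and from 0.0341 to 0.626 against dSpm. dSpm differed from the wild type by -0.14 (standard error 0.15, adjusted p = 0.705 in edgeR).

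OsMADS15 was at 243, 209 and 222 CPM in wild type 1, 2 and 3, and at 221 and 199 CPM in CRISPR. In dSpm 1 and 2 it was at 290 and 263 CPM, above all other samples, and in dSpm 4b and 5b at 171 and 158 CPM, below all others. The dSpm mean of 220 ± 65.5 CPM (SD over 4 samples) thus lay beside the wild-type mean of 225 ± 17.2 CPM (SD over 3 samples) while no dSpm sample was at that level. Log2 fold changes were -0.03 in dSpm (standard error 0.22, 95% interval -0.52 to 0.46, adjusted p = 0.970 in edgeR) and -0.09 in CRISPR (standard error 0.26, 95% interval -0.68 to 0.49, adjusted p = 0.864 in edgeR) against the wild type. The dSpm value turned to 0.03, 0.05 and 0.08 without wild type 1, dSpm 4b and dSpm 5b. CRISPR against dSpm gave -0.07 (standard error 0.25, adjusted p = 0.904 in edgeR), which turned to 0.09, 0.06 and 0.04 without dSpm 1, dSpm 2 and CRISPR 2.

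OsMADS14 held a smaller share beside OsMADS15 in every mutant sample. Relative to the mean of the wild type, the log2 ratio of OsMADS14 to OsMADS15 was -0.63, -0.53, -0.36 and -0.28 in dSpm 1, 2, 4b and 5b and -0.56 and -0.64 in CRISPR 1 and 2. In the wild type it ran from -0.18 to 0.13. The ratio of OsMADS14 to OsMADS18 was lower than in every wild-type sample in dSpm 1, 4b and 5b, at -0.37, -0.54 and -0.53, where the wild type ran from -0.28 to 0.18. In dSpm 2 and in both CRISPR samples, at -0.12, -0.07 and -0.14, it was within the wild-type range. All 3 AP1/FUL-class genes were lower in dSpm 4b and 5b than in dSpm 1 and 2, a pattern held by 24.6% of all tested genes.

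OsMADS20, the remaining AP1/FUL-class gene, was close to absent from these panicles. It had 4 counts in dSpm 4b (0.0508 CPM), 5 counts in CRISPR 1 (0.0674 CPM) and 0 counts in the other 7 samples. The limit set by a count of 0 is 3 counts, or 0.0337 to 0.0459 CPM depending on the sample. It was below the filter on low counts and was not tested, and no difference was detectable at this depth.

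OsMADS32, also known as CHIMERIC FLORAL ORGANS1, keeps floral organs distinct in rice and belongs to none of the classical classes. It was at 26.5, 23.3 and 23.8 CPM in wild type 1, 2 and 3, at 20.4 and 15.0 CPM in dSpm 1 and 2, and at 35.2 and 31.4 CPM in dSpm 4b and 5b. CRISPR held 36.6 and 32.8 CPM. The wild-type samples lay between the 2 pairs of dSpm samples, and both CRISPR samples lay above the wild type at the level of dSpm 4b and 5b. OsMADS32 was the only tested member with a higher mean in CRISPR than in the wild type. Its difference was 0.50 on the log2 scale in CRISPR against the wild type (standard error 0.32, 95% interval -0.22 to 1.22, adjusted p = 0.365 in edgeR) and 0.44 against dSpm (standard error 0.30, 95% interval -0.24 to 1.12, adjusted p = 0.416 in edgeR). Against dSpm 1 and 2 alone, the latter was 1.01 with an adjusted p = 0.0307 in edgeR, and against dSpm 4b and 5b alone it was 0.08, in a range of adjusted p from 0.0307 to 0.776 over the 19 alternatives. dSpm differed from the wild type by 0.06 (standard error 0.27, 95% interval -0.55 to 0.67, adjusted p = 0.947 in edgeR), which turned to -0.16 and -0.08 without dSpm 4b and without dSpm 5b.

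Both pairs of dSpm samples were also compared with the wild type on their own. dSpm 1 and 2 alone differed from the wild type by -0.68 for OsMADS2, -0.20 for OsMADS4 and -0.54 for OsMADS16 on the log2 scale, and dSpm 4b and 5b alone by -0.51, 0.79 and 0.89. OsMADS2 was thus below the wild-type mean in both pairs, which rests on wild type 1 at 120 CPM. The pairs averaged 43.2 and 49.0 CPM, above the 42.7 CPM of wild type 2 and 3. The sign of the other B-class genes depended on the pair. For OsMADS14 the values were -0.31 and -0.80, for OsMADS15 0.28 and -0.48, for OsMADS18 -0.06 and -0.27, and for OsMADS32 -0.49 and 0.41. The adjusted p was under 0.05 in edgeR for OsMADS14 (0.00501) and OsMADS15 (0.0266) in dSpm 4b and 5b, each under 2-fold, and ran from 0.00501 to 0.771 and from 0.0266 to 0.985 over the 19 alternatives. Without wild type 1 and dSpm 1, the differences from the wild type were -0.72 in CRISPR and -0.63 in dSpm for OsMADS14, -0.03 and -0.13 for OsMADS15, and 0.56 and 0.21 for OsMADS32.

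Of the 7 tested members, 0 were called in dSpm against the wild type, at an adjusted p under 0.05 and a fold change over 2 in edgeR, where 1.45% of the 27251 tested genes were called. In CRISPR against the wild type 0 were called, where 5.55% of all genes were, and in CRISPR against dSpm 0 again, where 5.36% were. At an unadjusted p under 0.05 there were 1 (OsMADS14), 3 (OsMADS2, OsMADS14 and OsMADS18) and 4 (the B-class genes and OsMADS18) in these comparisons, where the share of all tested genes was 16.6%, 25.7% and 23.7%. With DESeq2 the calls were 0, then 1 (OsMADS2, log2 fold change -1.55, adjusted p = 0.00526 in DESeq2) and then 2 (OsMADS4 at -1.40 with an adjusted p = 0.0431 and OsMADS16 at -1.57 with an adjusted p = 0.0327 in DESeq2), where it called 4.8%, 12.1% and 10.5% of the genes to which it gave an adjusted p. Dropping the fold change threshold in edgeR called 0 members in each. Of the 27251 tested genes it called 344 higher and 129 lower in dSpm against the wild type. In CRISPR it called 725 higher and 1258 lower against the wild type, and 592 and 1371 against dSpm.

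Members whose groups did not overlap numbered 1 of 7 in dSpm against the wild type, beside 15.1% of all tested genes. They numbered 5 of 7 in CRISPR against the wild type, 4 lower and 1 higher, beside 54.6% of all tested genes, and 3 of 7 in CRISPR against dSpm, all lower, beside 40.4%. The median log2 fold change of the 7 was -0.03, -0.69 and -0.46 in the 3 comparisons, where that of all tested genes was 0.06, 0.00 and -0.05.

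**Figure D3:**
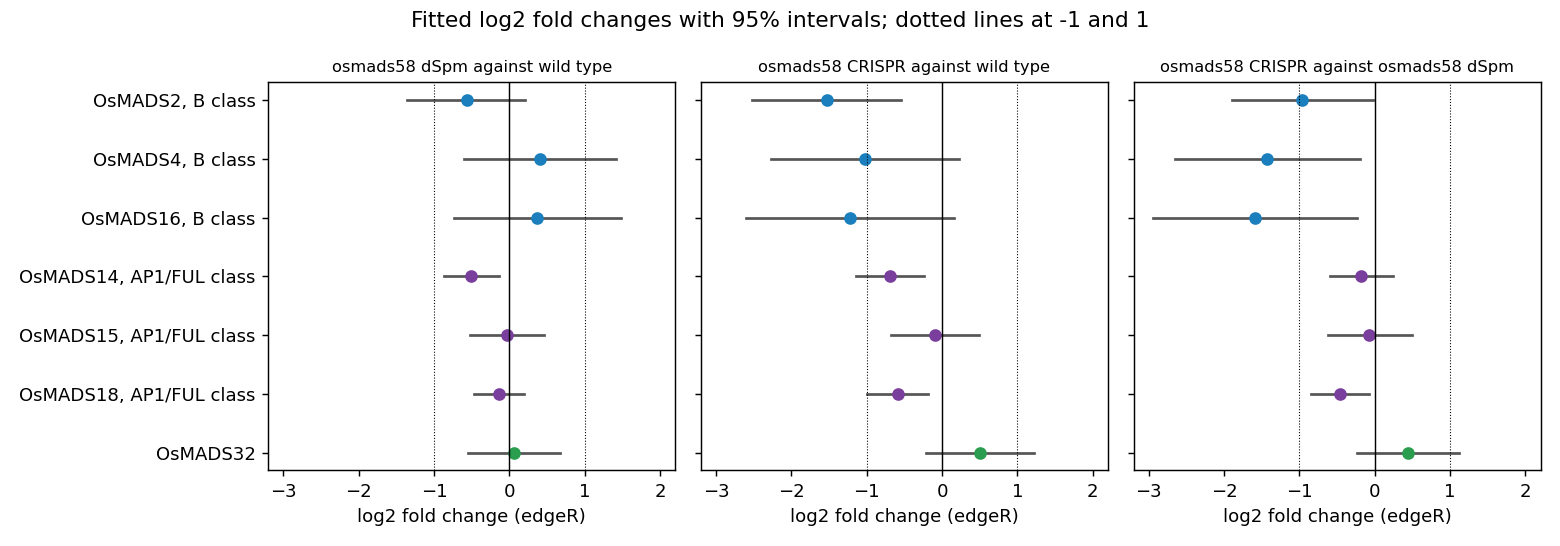
Log2 fold changes (points) with 95% intervals (lines) of the 7 tested genes in the 3 comparisons, from edgeR, with dotted lines at the 2-fold threshold in each direction. Intervals of the B-class genes are wider than those of the AP1/FUL-class genes, and no gene was called in any comparison.

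The samples' own differences appeared again in how members tracked each other. Over the 9 samples, Pearson's r of log2 CPM was 0.72 for OsMADS2 and OsMADS4, 0.74 for OsMADS2 and OsMADS16, and 0.87 for OsMADS4 and OsMADS16. OsMADS18 was nearer to a B-class gene, OsMADS2 (r = 0.84), than to OsMADS14 (r = 0.69) or OsMADS15 (r = 0.45). OsMADS32 ran opposite to all 3 AP1/FUL-class genes, at r = -0.61 with OsMADS14, -0.70 with OsMADS15 and -0.50 with OsMADS18. B-class pairs were at 0.75 to 0.88 without wild type 1 and dSpm 1, and without dSpm 4b and 5b at 0.76 to 0.95, over 7 samples each. OsMADS32 stayed negative with the AP1/FUL-class genes in both, at -0.70 to -0.48. These values describe 9 libraries from 3 groups whose means differ, include the samples that stood apart, and carry no test.

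Among the genes that averaged 10 CPM or more, the pattern most like that of OsMADS16 belonged to LOC_Os08g41950, at r = 0.979 and Spearman's rho = 0.883 over the 9 samples. This gene is also 1 of 11 identifiers set down as C-, D-, E-class or AGL6-type MADS-box genes. For OsMADS2 the nearest gene was LOC_Os08g01840 (r = 0.957), for OsMADS4 LOC_Os03g12010 (r = 0.979), and for OsMADS32 LOC_Os02g12570 (r = 0.984). For OsMADS14 it was LOC_Os04g31340 (r = 0.986), for OsMADS15 LOC_Os12g16524 (r = 0.973), and for OsMADS18 LOC_Os01g47262 (r = 0.992). Among the other members and the 11 identifiers, the nearest to OsMADS2 was LOC_Os04g49150 (r = 0.91), to OsMADS4 LOC_Os02g45770 (r = 0.90), to OsMADS18 LOC_Os06g06750 (r = 0.93), and to OsMADS32 LOC_Os12g10540 (r = 0.50). LOC_Os03g54170 was nearest to both OsMADS14 (r = 0.75) and OsMADS15 (r = 0.63). It ran opposite to OsMADS4 (r = -0.60) and OsMADS16 (r = -0.73).

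The MADS-box genes of the other classes, whose products join B- and AP1/FUL-class proteins in complexes, also had lower fitted levels in CRISPR. Apart from OsMADS58, the deposited values pair these 11 identifiers with no names, and their classes were taken from general knowledge of the rice annotation. Of the 11, 10 were tested. In CRISPR against the wild type all 10 had a negative log2 fold change, as did 13390 of the 27251 tested genes. The values ran from -3.81, for the edited gene OsMADS58, to -0.24 with a median of -1.23. Apart from OsMADS58 the lowest was -1.79. Both CRISPR samples lay below the whole wild type for 7, OsMADS58 included, as they did for 25.6% of all tested genes. The 1 called, beside 5.55% of all tested genes, was OsMADS58 itself (LOC_Os05g11414), at -3.81 (standard error 0.67, adjusted p = 0.0153 in edgeR). With OsMADS58 counted, 5 had an unadjusted p under 0.05 in edgeR, beside the 25.7% of all tested genes. Without wild type 1 and dSpm 1, an alternative chosen after the values were seen, 9 of the 10 were negative. The median was then -0.64, and 8 lay below the wild type (33.1% of all tested genes). An unadjusted p under 0.05 in edgeR was found for 2 (32.9% of all tested genes). In CRISPR against dSpm 9 of the 10, OsMADS58 included, were negative with a median of -1.35, where 14567 of the 27251 tested genes were negative. Of the 10, 0 were called, beside 5.36% of all tested genes. There were 5 with an unadjusted p under 0.05 in edgeR, beside the 23.7% of all tested genes. OsMADS58 stood at -2.15 against all dSpm samples (standard error 0.60, adjusted p = 0.0638 in edgeR). The median of the 10 was -0.59 against dSpm 1 and 2 alone. There, 2 had an unadjusted p under 0.05 in edgeR (27.2% of all tested genes). Without wild type 1 and dSpm 1 the median was -1.55, and 9 had an unadjusted p under 0.05 in edgeR (33.3% of all tested genes). OsMADS58 was then at -2.01 (adjusted p = 0.0454 in edgeR). In dSpm against the wild type 4 were positive and 6 negative with a median of -0.09. Of the 10, 0 were called, beside 1.45% of all tested genes. There were 2 with an unadjusted p under 0.05 in edgeR, beside 16.6%. OsMADS58 stood at -1.66 (standard error 0.47, adjusted p = 0.118 in edgeR). The median of the 10 was 0.58 without wild type 1 and dSpm 1 and -0.60 for dSpm 1 and 2 alone. Wild type 1 was the highest wild-type sample for 9 of the 10, as it was for the 3 B-class genes. Of 6 identifiers set down as regulators of flowering or floral organs upstream of or beside the members, 3 were tested. They had 0 calls in edgeR in dSpm and CRISPR against the wild type and in CRISPR against dSpm. Of all tested genes, 1.45%, 5.55% and 5.36% were called there. At an unadjusted p under 0.05 in edgeR there were 2, 0 and 0 of these regulators, beside 16.6%, 25.7% and 23.7% of all tested genes. Their median was 1.08 in dSpm against the wild type, 0.27 in CRISPR against the wild type and -0.55 in CRISPR against dSpm.

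Markers of cell types and stages differed between the same samples. The summed level of 6 germ cell and meiosis genes, among them MEL1, PAIR1, PAIR2, PAIR3 and ZEP1, was 173 to 183 CPM in the wild type, 95.2 and 105 CPM in dSpm 1 and 2, 350 and 366 CPM in dSpm 4b and 5b, and 114 and 154 CPM in CRISPR, with no gene at 0 in any sample. MEL1, an Argonaute of germ cells, made up most of this sum, at 126 ± 4.90 CPM (SD over 3 samples) in the wild type and 62.3 ± 23.1 CPM (SD over 2 samples) in CRISPR, and its difference did not pass the test (log2 fold change -1.01, adjusted p = 0.432 in edgeR). PAIR1, PAIR2, PAIR3 and ZEP1 were instead higher in both CRISPR samples than in every wild-type sample, as were 7894 of the 27251 tested genes. For PAIR2 the log2 fold change was only 0.36 (adjusted p = 0.341 in edgeR). The remaining gene of the 6, LOC_Os05g50410, averaged 5.05 CPM in the wild type and 2.56 CPM in CRISPR. Its groups overlapped (log2 fold change -0.98, adjusted p = 0.238 in edgeR). Of the 6, 1 was called in CRISPR against the wild type, beside 5.55% of all tested genes. This was ZEP1, a protein of the synaptonemal complex, at 1.52 (standard error 0.40, adjusted p = 0.0493 in edgeR). The summed level of 8 tapetum identifiers was 6.49 to 10.3 CPM in the wild type, 5.60 and 5.66 CPM in dSpm 2 and 1, 21.1 and 23.4 CPM in dSpm 5b and 4b, and 10.6 and 12.7 CPM in CRISPR, with 0 to 3 of the 8 at 0. Of these, 7 were tested and 1 was called in CRISPR against dSpm, beside 5.36% of all tested genes. This was LOC_Os04g51070, lower in CRISPR (adjusted p = 0.0488 in edgeR). It had 12 to 80 counts in the dSpm samples and 0 counts in CRISPR and in the wild type. CRISPR was at least 14.8-fold below the dSpm mean, against 3 counts in a CRISPR library. The gene passed the filter on low counts through the dSpm samples alone, so the call is not independent of that selection. Within dSpm, the samples with the higher OsMADS4, OsMADS16 and OsMADS32 and the lower OsMADS14 and OsMADS15 were thus those with the higher germ cell and tapetum sums. The tapetum sum was not spread evenly over its list. In dSpm LOC_Os01g18870 ran from 1.64 to 12.8 CPM, and each other tapetum identifier stayed at or below 3.05 CPM. In the wild type, sample 1 had the highest OsMADS16, at 120 CPM, and the highest tapetum sum. Its germ cell sum, 176 CPM, lay between those of wild type 2 and 3. CRISPR had OsMADS32 at 36.6 and 32.8 CPM, above the wild type, with germ cell sums below it. The sum of 4 meristem identifiers was 32.4 to 43.1 CPM in the wild type and 73.2 to 77.1 CPM in CRISPR, with 1 or 2 of the 4 at 0. It was also higher in dSpm 4b and 5b, at 84.6 and 76 CPM, than in dSpm 1 and 2, at 40.3 and 54.2 CPM. LOC_Os03g51690 made up most of this sum, at a mean of 32.9 CPM in the wild type, 51.5 CPM in dSpm and 62.7 CPM in CRISPR. The sum of 3 green tissue identifiers was 11.3 to 13.9 CPM in the wild type, 14.4 to 21.1 CPM in dSpm and 13.7 to 20.9 CPM in CRISPR, none at 0. These did not move together. From the wild type to CRISPR the mean of LOC_Os01g41710 went from 1.52 to 9.01 CPM and that of LOC_Os12g17600 from 9.94 to 6.41 CPM. For LOC_Os09g17740 it went from 1.53 to 1.89 CPM. Of the 3, 0 were called there in edgeR, beside 5.55% of all tested genes. The part of these differences in the members' values was not tested.

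**Figure D4:**
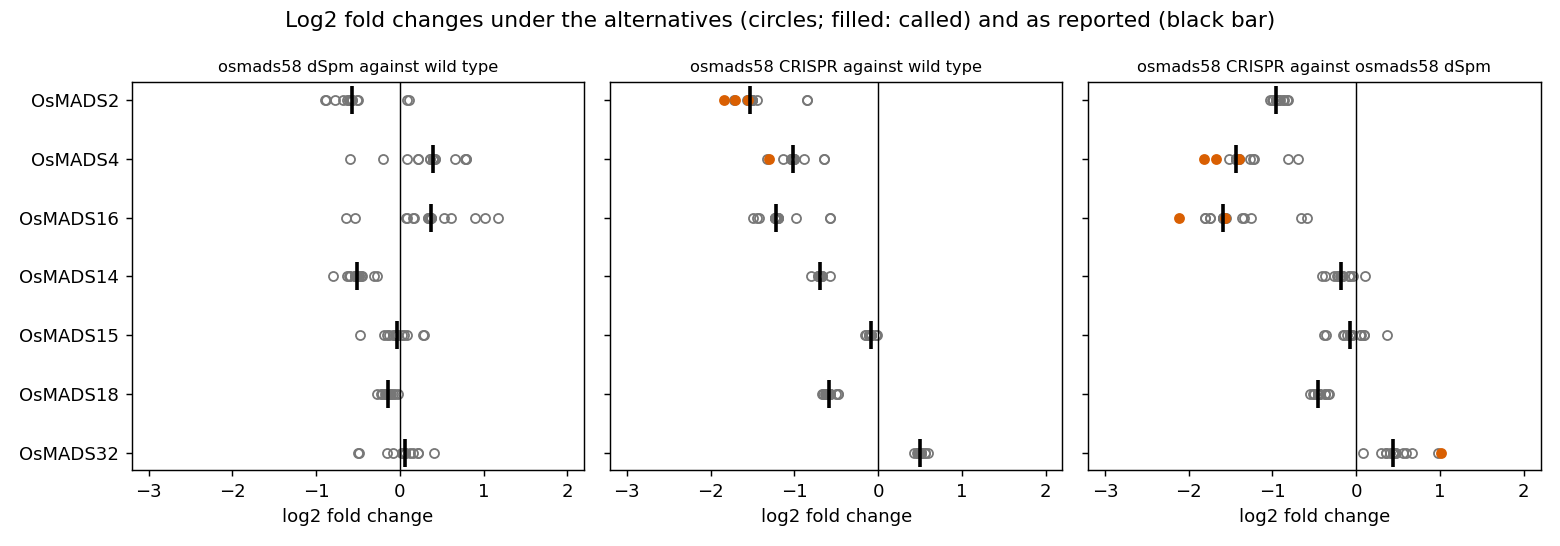
Log2 fold changes of the 7 tested genes in the 3 comparisons under the 19 alternative settings (circles, filled where called) and as reported (black bar). Calls appear for B-class genes in both CRISPR comparisons and once for OsMADS32, and values on both sides of 0 appear mostly in dSpm against the wild type.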

How the data were processed

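RNA-seq of 9 panicle samples was analysed (3 wild type, 4 *osmads58* dSpm, 2 *osmads58* CRISPR). The authors mapped reads to MSU v7.0 with Hisat 2.1.0 and measured genes with Stringtie 1.3.3b, and deposited estimated counts as whole numbers, so rounding changed 0 values. How coverage became counts is not given in the sources used here. Between 37.2% and 40.7% of low counts were multiples of 4, where even spacing gives 25%, so limits from counting error are too narrow and cover counting error only. The 27251 genes kept by edgeR's filterByExpr, of 33682 with a count, were tested in R 4.3.3 with edgeR 4.0.16 (TMM, glmQLFit, glmQLFTest, one fit of 3 groups). A call needed a fold change over 2 and an adjusted p under 0.05 (Benjamini-Hochberg, over all tested genes). Log2 CPM used a prior count of 2, and 95% intervals came from the root of the F statistic. The procedure was tested on simulated data.

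The members and lists were chosen with earlier results of these data known. Named genes were the 8 members, OsMADS58, called genes of the MADS and regulator lists, and for each member the genes most like it. Marker genes are named after their values were seen. MEL1, PAIR1, PAIR2, PAIR3 and ZEP1 are named from the study's tables. Alternatives were DESeq2 1.42.0, RLE factors, other filters, only the 2 groups compared, a replicate block, each sample left out, wild type 1 and dSpm 1 left out, each pair of dSpm samples, counts divided by 4, and no fold change threshold. Levels were not compared between genes, since no transcript lengths were used here. P-values measure the spread between these samples.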

Additional observations from a re-analysis of the deposited data

Results flagged for a closer look

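Each member was examined for a dSpm sample far from the other 3, the 1 group of 4 samples (8 groups examined, of which chance picks about 1 in 20). OsMADS18 was at 324 CPM in dSpm 1, against 252 to 264 CPM in the other dSpm samples. OsMADS20 was at 0.0508 CPM in dSpm 4b, which is 4 counts, against 0 counts in the other dSpm samples. With the other 3 at 0 any count is picked, so the rate of 1 in 20 does not apply to it.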

How the results depend on the processing

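In dSpm against the wild type 0 members were called under every alternative run. In CRISPR against the wild type the count was 1 with DESeq2 and 0 to 1 with 1 sample left out (1 without wild type 3). In CRISPR against dSpm it was 2 with DESeq2, 1 against dSpm 1 and 2 alone, 2 against dSpm 4b and 5b alone (OsMADS4 at -1.82, adjusted p = 0.0299, and OsMADS16 at -2.12, adjusted p = 0.0323 in edgeR, where dSpm 1 and 2 alone gave -0.81 and -0.66), and 0 to 1 with 1 sample left out (1 without dSpm 2). With 1 CRISPR sample left out, the other was assumed to vary like the remaining groups. The number of all tested genes called was taken only for DESeq2 and for the reported fit, with and without its fold change threshold. Whether the other settings called more genes throughout was not examined, so their counts of members have no share to be set against. Of 399 values of single members, 368 kept their direction and their side of the thresholds, 10 passed them newly and 21 changed sign. In dSpm against the wild type, dSpm 1 and 2 alone gave -0.20 for OsMADS4, -0.54 for OsMADS16, 0.28 for OsMADS15 and -0.49 for OsMADS32, and without wild type 1 and dSpm 1 OsMADS2 was at 0.08. With 1 sample left out OsMADS2 ran from -0.88 to 0.11, OsMADS15 from -0.19 to 0.08 and OsMADS32 from -0.16 to 0.22. In CRISPR against dSpm, OsMADS15 ran from -0.16 to 0.09 with 1 sample left out and was at 0.09 without wild type 1 and dSpm 1. Against dSpm 4b and 5b alone OsMADS14 was at 0.10 and OsMADS15 at 0.37. The cause of these changes was not tested, and neither was the part of the fewer samples in these fits.

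The groups share only the replicate numbers 1 and 2, and no source says that a number marks a shared plant or day. Deviations from the group means correlated at 0.31 and 0.13 between same-numbered wild-type and dSpm samples. Between CRISPR samples and same-numbered others they correlated at -0.06 to 0.01. Differently numbered wild-type and dSpm samples ran from -0.25 to 0.13, the latter for wild type 3 and dSpm 2, so the 0.13 is not particular to a shared number. Labels 3, 4b and 5b each occur in 1 sample, which a replicate block fits exactly. The blocked differences thus rest on samples 1 and 2 of each group, and the other samples drop out of them. With the replicate block, 2 members were called in CRISPR against the wild type (OsMADS2 at -1.71, adjusted p = 0.0145, and OsMADS4 at -1.30, adjusted p = 0.0359 in edgeR). The share of all tested genes called with the block was not taken. In dSpm against the wild type the replicate block gave -0.60 for OsMADS4, -0.64 for OsMADS16, 0.29 for OsMADS15 and -0.50 for OsMADS32. In CRISPR against dSpm it gave -0.70 for OsMADS4 and -0.59 for OsMADS16.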
